A study of Mus musculus with 8 samples.

Results

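Retinoic acid is made, carried, sensed and removed by a small set of proteins, and 9 genes of that set were followed here among the 26873 features of the deposited table. They were chosen by name: the receptors Rara, Rarb and Rarg, the clearing enzyme Cyp26b1, the synthesising enzymes Aldh1a1 and Aldh1a2, the binding protein Crabp2, the retinal reductase Dhrs3 and the retinol transporter Stra6. All 9 names were found once each, 8 of the genes had at least 1 count, and 7 passed the filter on low counts and could be tested.

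The libraries came from a bone marrow mesenchymal stem cell line labelled wild type, mouse and osteogenic differentiation, so every group shares that line and that treatment. The cells were given extracts of scaffolds labelled PCL-O, PCL-S, PCL-E or PCL-SE and were sampled on day 3 and day 7. The design names a blank group, the peptides S7 and E7, and both together; PCL-S was taken as S7, PCL-E as E7, PCL-SE as both, and PCL-O, the arm left over, as the blank. What the peptides are and how much was used is not analysed here. Per the labels, all extracts were made with 1.25 cm2 of scaffold per ml of DMEM with 10% serum for 72 h. Each arm and day has 1 library, 8 in all. The labels name 3 RNA samples without saying how they relate to a library, so the number of cultures behind a value is unknown.

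Total counts ran from 32950326 to 41754124 per library, and 3 counts corresponded to 0.0718 to 0.0910 CPM, the count scaled to the library total. The 7 listed markers of mesenchymal stromal cells were all detected, with a summed level of 3312 to 6117 CPM. Markers of blood cells and macrophages summed to 0.663 to 2.25 CPM, with Adgre1 at 0. Those of endothelial cells summed to 3.25 to 14.3 CPM, nearly all of it Tek, with Cdh5 at 0. Markers of adipocytes summed to 0 to 3.61 CPM and those of epithelial cells to 2.79 to 11.1 CPM. The gene identifiers in the table are those of rat for all 9 genes, whereas the labels give mouse, so the species behind the counts is unsettled. In bulk RNA, fewer cells of a type and less RNA per cell cannot be told apart.

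Retinol enters cells through transporters such as Stra6, is oxidised to retinal and then, by aldehyde dehydrogenases of the Aldh1a family, to retinoic acid. Dhrs3 turns retinal back into retinol, Crabp2 hands retinoic acid to its receptors, and Cyp26 enzymes oxidise it for removal. The receptors pair with retinoid X receptors on DNA elements made of repeated hexamers, and in many cell types Cyp26 genes, Dhrs3 and Rarb are themselves induced by retinoic acid. In the skeleton, retinoic acid affects the maturation of cartilage and bone cells, and loss of Cyp26b1 disturbs limb and skull formation in the mouse.

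The promoter windows of 3 of these genes are shown because the receptors act through such elements, and because Dhrs3 and Cyp26b1 were the more abundant genes that differed most between the arms. They are mouse RefSeq windows from 250 bases before to 50 bases after a gene start, matched by symbol and read 5′ to 3′ on the gene's strand in build GRCm38.p6. Rarb lies at chr14:16575427-16575726 on the minus strand, Cyp26b1 at chr6:84593761-84594060 on the minus strand, and the first of 3 Dhrs3 windows at chr4:144892577-144892876 on the plus strand. Capitals mark a pair of hexamers spaced by 5 bases.
Rarb promoter: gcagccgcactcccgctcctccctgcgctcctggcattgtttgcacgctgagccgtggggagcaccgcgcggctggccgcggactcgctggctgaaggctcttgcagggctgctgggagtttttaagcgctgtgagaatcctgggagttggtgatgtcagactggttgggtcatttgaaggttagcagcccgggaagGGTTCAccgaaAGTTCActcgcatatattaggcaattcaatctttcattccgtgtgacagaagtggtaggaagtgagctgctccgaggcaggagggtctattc
Cyp26b1 promoter: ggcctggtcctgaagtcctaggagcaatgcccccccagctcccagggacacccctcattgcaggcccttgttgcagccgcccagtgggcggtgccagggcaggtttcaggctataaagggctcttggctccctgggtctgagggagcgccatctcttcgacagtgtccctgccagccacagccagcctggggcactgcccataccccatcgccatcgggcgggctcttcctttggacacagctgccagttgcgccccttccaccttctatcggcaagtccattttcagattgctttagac
Dhrs3 promoter: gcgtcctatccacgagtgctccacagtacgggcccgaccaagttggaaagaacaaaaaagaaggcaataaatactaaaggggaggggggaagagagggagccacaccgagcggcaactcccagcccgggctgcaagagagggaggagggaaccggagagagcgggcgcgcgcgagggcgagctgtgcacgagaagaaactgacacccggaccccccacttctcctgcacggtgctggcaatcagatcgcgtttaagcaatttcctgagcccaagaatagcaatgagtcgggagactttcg

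Both strands were searched for the hexamers AGGTCA and AGTTCA, or for GGTTCA and also GGGTCA, in any pairing, as direct repeats spaced by 5 or by 2 bases. The Rarb window held 1 repeat spaced by 5, from 53 to 37 bases before the start, and a further single GGGTCA upstream that does not overlap it. Such a repeat was found in 32 of 32851 mouse windows (0.0974%), and one spaced by 2 in 88 (0.268%). None of the windows of the other genes held either repeat, and the windows of Cyp26b1 and Dhrs3 held no single hexamer, which 43.7% of all windows did. No window was listed for Crabp2. A match is a run of letters and not a measured binding site.

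Levels were compared between genes per length, with the authors' FPKM. Averaged over the 8 libraries, Dhrs3 came first (32.2 FPKM), followed by Rarg (19.1), Rara (12.1), Crabp2 (10.2) and Cyp26b1 (5.25). Aldh1a1 (0.256 FPKM), Rarb (0.195) and Aldh1a2 (0.0284) lay far lower, and Stra6 was listed at 0. The ranges of neighbours overlapped: Rarg spanned 14.1 to 28.9 FPKM and Rara 10.3 to 14.3, while Crabp2 reached 18.1 and Cyp26b1 spanned 0.800 to 11.2. Rara varied least among the detected genes, by 1.43-fold from its lowest to its highest CPM, and Rarg by 1.92-fold. Cyp26b1 varied by 13.9-fold, and Dhrs3 ran from 17.6 to 141 CPM.

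**Figure D1:**
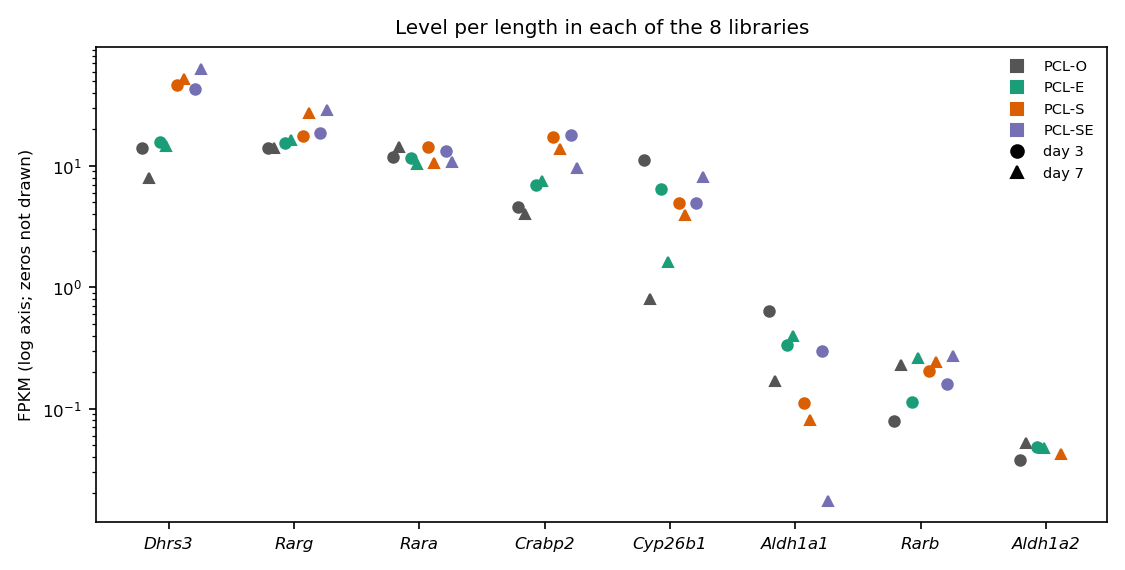
FPKM of the 8 detected genes on a log axis, 1 point per library, coloured by arm with circles for day 3 and triangles for day 7. Dhrs3 has the highest mean (32.2) and Aldh1a2 the lowest (0.0284); libraries listed at 0 are not drawn.

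Differences between the arms with S7 (PCL-S and PCL-SE) and those without (PCL-O and PCL-E) were tested on each day; the model held terms for S7, for day, for S7 by day and for E7. Fold changes are log2 values with their standard error, and a gene was called at an adjusted p under 0.05 over 15942 features. Because each group pools different arms, the p-values measure departures from the fitted terms, and no replicate cultures of an arm enter them. Fits that leave out 1 library often called fewer of all features, so a call lost there need not be particular to the gene. Where groups are said not to overlap, the share of all features that separate likewise was not counted. On day 3, 3 of the 7 tested genes were higher in the arms with S7 and 0 were lower, against 7.1% of all features called higher and 6.87% lower (14% in all). Their median log2 fold change was 0.31, against 0.00321 over all features. On day 7, 3 were higher and 1 was lower, against 24.9% and 26.2% of all features (51% in all), so a call on that day was common. The median on day 7 was 0.55, against -0.029 over all features. The genes and tests were chosen with earlier results of these data known, so these shares and medians are descriptions only.

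**Figure D2:**
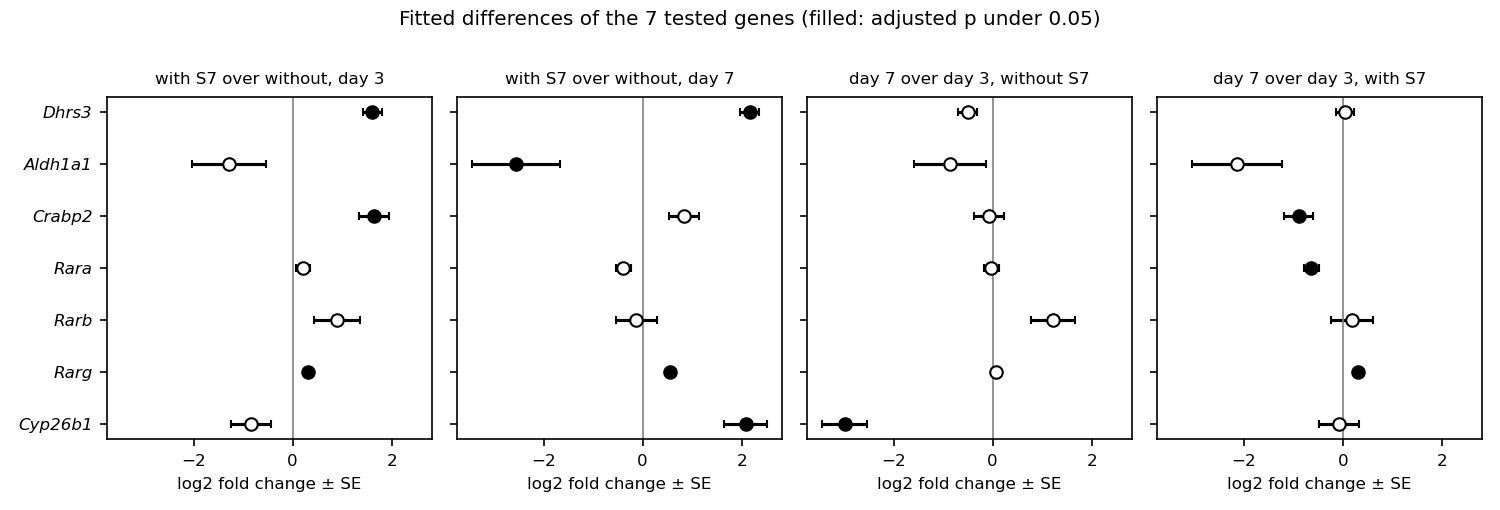
Log2 fold changes with standard errors for the 7 tested genes in 4 comparisons, filled where the adjusted p was under 0.05. Dhrs3 is higher with S7 on both days (1.61 and 2.16), and Cyp26b1 changes from -0.84 on day 3 to 2.08 on day 7.

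Stra6 (ENSRNOG00000008312), the membrane receptor that takes up retinol from its carrier protein, had 0 counts in every library. A count of 0 had an exact 95% upper limit of 0.0883 to 0.112 CPM at these depths, so a level under that cannot be told from none.

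Dhrs3 (ENSRNOG00000015736), which reduces retinal to retinol and so lowers the supply for retinoic acid synthesis, was the most abundant gene of the set and was higher with S7 on both days. On day 3 it stood at 102 CPM with PCL-S and 95.3 with PCL-SE, whereas PCL-O gave 31.1 and PCL-E gave 34.9. By day 7 the values were 115 with PCL-S and 141 with PCL-SE, whereas PCL-O gave 17.6 and PCL-E gave 32.4. The groups did not overlap on either day, and the lowest library with S7 was far above the highest without it. The log2 fold change was 1.61 ± 0.19 on day 3 (3.06-fold, adjusted p = 0.00411) and 2.16 ± 0.20 on day 7 (4.47-fold, adjusted p = 3.43e-04). The change of this difference between the days was 0.55 ± 0.27 (adjusted p = 0.169) and was not called. The day 7 call held without any 1 of the 8 libraries, and the day 3 call was lost without PCL-O day 3 (adjusted p = 0.0517). The change between the days was called when PCL-E day 7 was left out (0.94, adjusted p = 0.00604). In a fit of arm and day without an interaction, which sets PCL-S against PCL-O over both days, Dhrs3 was the only member called (2.05, adjusted p = 0.0425). That fit called 201 of all features for this difference and 6 for day. The main fit called 2227 for S7 on day 3 and 8137 on day 7, so most features lost their call in the fit of arm and day.

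Aldh1a1 (ENSRNOG00000017619), a retinaldehyde dehydrogenase that makes retinoic acid, was low in every library and was called lower with S7 on day 7. The counts on day 3 were 52 in PCL-O, 28 in PCL-E, 11 with PCL-S and 24 with PCL-SE, or 1.51, 0.807, 0.268 and 0.705 CPM. Those on day 7 were 14 in PCL-O, 39 in PCL-E, 7 with PCL-S and 2 with PCL-SE, or 0.425, 0.934, 0.212 and 0.0533 CPM. On both days the 2 arms with S7 lay under those without, with no overlap, but the closest pairs were equal within counting error. On day 3 PCL-SE stood at 0.887 times PCL-E (95% counting interval 0.492 to 1.59). On day 7 PCL-S stood at 0.415 times PCL-O (0.142 to 1.10). The log2 fold change was -1.28 ± 0.75 on day 3 (adjusted p = 0.312) and -2.56 ± 0.89 on day 7 (adjusted p = 0.0481). That call was lost without PCL-O day 3, PCL-E day 3, PCL-S day 7, PCL-E day 7 or PCL-SE day 7, with values from -3.96 to -1.63, under library totals (adjusted p = 0.0595), with E7 allowed to differ by day (adjusted p = 0.0807) and in the arm and day fit (-1.90, adjusted p = 0.347). The pair furthest apart, from counts alone, was PCL-SE on day 7 at 0.0504 times PCL-E, with a 95% counting interval of 0.00589 to 0.194. Aldh1a7, a close copy whose reads could be split with Aldh1a1, reached at most 0.195 CPM. How reads shared by both genes were counted is not given, so the effect on the values of Aldh1a1 is unknown.

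Aldh1a2 (ENSRNOG00000055049), the main retinaldehyde dehydrogenase of the mouse embryo, was too low to test. It had 4 counts in PCL-O and in PCL-E on day 3 and 0 with PCL-S or PCL-SE. On day 7 it had 5 counts in PCL-O and in PCL-E, 4 with PCL-S and 0 with PCL-SE. No test was made at these counts. Set against PCL-O of the same day, the counting interval of the ratio lay under 1 for PCL-SE on day 7 (0 to 0.792) and included 1 for the other arms.

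Crabp2 (ENSRNOG00000022101), which carries retinoic acid into the nucleus, was higher with S7 on day 3. It stood at 14.7 CPM with PCL-S and 15.4 with PCL-SE, whereas PCL-O gave 3.91 and PCL-E gave 5.91. On day 7 the values were 11.7 in PCL-S, 8.21 in PCL-SE, 3.43 in PCL-O and 6.42 in PCL-E. The groups stayed apart on both days, although PCL-SE and PCL-E lay close together on day 7. The log2 fold change was 1.65 ± 0.31 on day 3 (3.14-fold, adjusted p = 0.0161) and 0.83 ± 0.31 on day 7 (adjusted p = 0.0583). Between the days Crabp2 fell in the arms with S7 (-0.89 ± 0.29, adjusted p = 0.0409), and the change of the S7 difference was not called (-0.82 ± 0.43, adjusted p = 0.194). The day 3 call was lost without any 1 of the 4 libraries of day 3. The fall with S7 was lost without any day 3 library or PCL-SE day 7, under library totals (-0.58, adjusted p = 0.141), with E7 allowed to differ by day (-0.81, adjusted p = 0.143) and in the arm and day fit (-0.52, adjusted p = 0.239), and it was -1.42 without PCL-S day 7. The arm and day fit also ended the day 3 call (1.71, adjusted p = 0.0885). The day 7 difference was called by DESeq2 (adjusted p = 0.0296), under library totals (1.05, adjusted p = 0.0260), without a low-count filter (adjusted p = 0.0487), and without PCL-E day 7 (1.26) or PCL-SE day 7 (1.30).

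**Figure D3:**
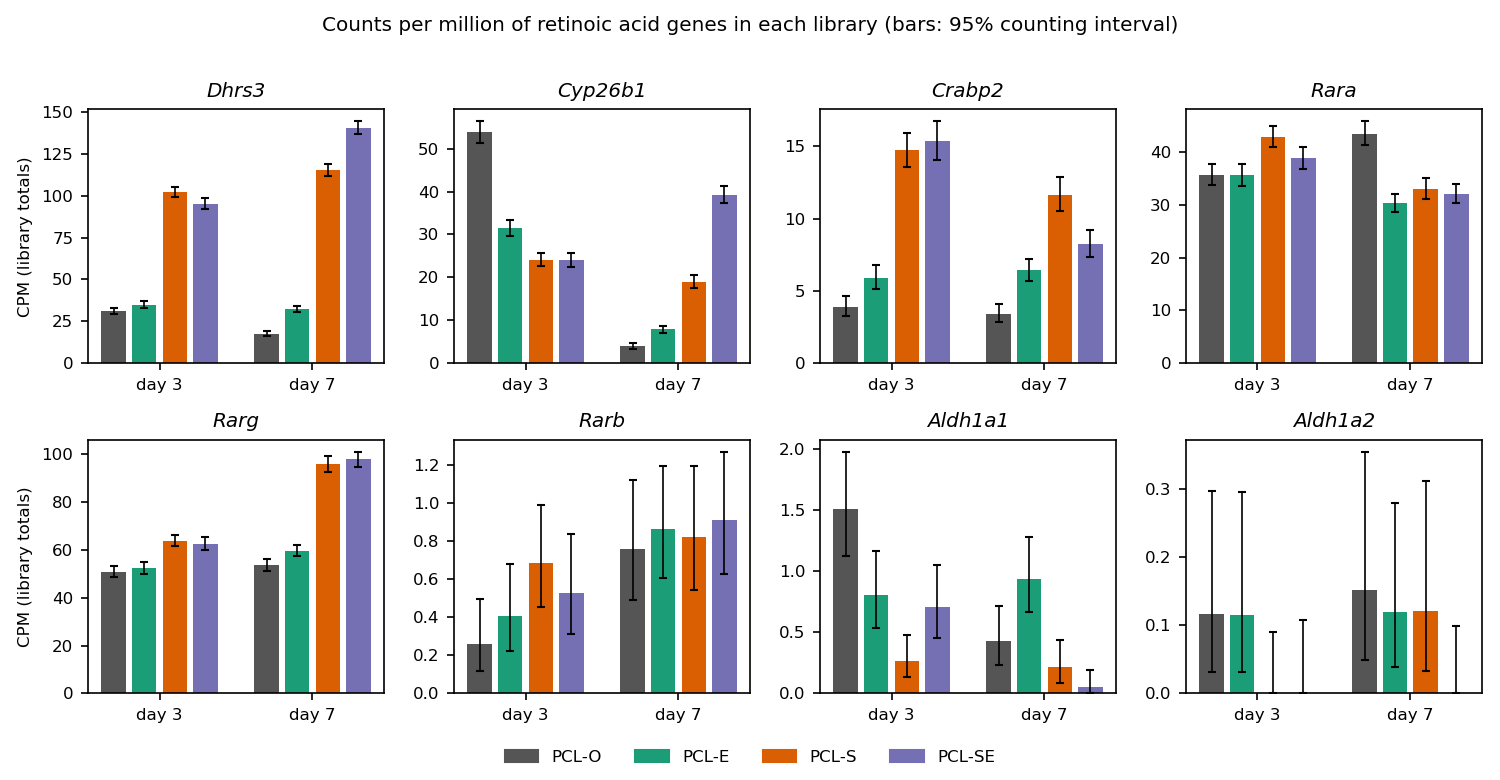
CPM of the 8 detected genes in each library, grouped by day and coloured by arm, with 95% counting intervals. Dhrs3, Crabp2 and Rarg are higher with PCL-S or PCL-SE on both days, while Cyp26b1 is lowest in these arms on day 3 (24.0 and 24.1 CPM) and highest in them on day 7 (19.0 and 39.2).

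Of the receptors, Rarg (ENSRNOG00000012499) was higher with S7 on both days by a small amount. On day 3 it stood at 64.0 CPM with PCL-S and 62.7 with PCL-SE, whereas PCL-O gave 50.9 and PCL-E gave 52.4. By day 7 it had reached 96.1 with PCL-S and 97.9 with PCL-SE, whereas PCL-O gave 53.6 and PCL-E gave 59.8. PCL-S and PCL-SE were nearly equal within each day and lay above the other arms. The log2 fold change was 0.31 ± 0.072 on day 3 (1.24-fold, adjusted p = 0.0342) and 0.55 ± 0.072 on day 7 (1.47-fold, adjusted p = 0.00116). In the arms with S7 it rose from day 3 to day 7 (0.31 ± 0.072, adjusted p = 0.0112), and without S7 it was not called (0.067 ± 0.072, adjusted p = 0.715). The change of the S7 difference was not called (0.24 ± 0.10, adjusted p = 0.120), though it was under library totals (0.48, adjusted p = 0.0192).

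The day 7 call of Rarg held without any 1 library. In the arm and day fit, neither PCL-S against PCL-O (0.46, adjusted p = 0.169) nor day (0.19, adjusted p = 0.275) was called. The day 3 call was lost without any day 3 library, PCL-S day 7 or PCL-SE day 7, under library totals (adjusted p = 0.0592) and with E7 allowed to differ by day (adjusted p = 0.0656). The rise with S7 was lost without any 1 of the 4 libraries of PCL-S and PCL-SE, and with E7 allowed to differ by day (adjusted p = 0.0691).

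Rara (ENSRNOG00000009972), the most widely expressed receptor of the family in the mouse, varied least of the detected genes. On day 3 it stood at 42.9 CPM with PCL-S and 38.8 with PCL-SE, and at 35.6 in each of PCL-O and PCL-E. On day 7 it was 33.0 in PCL-S, 32.1 in PCL-SE, 43.5 in PCL-O and 30.3 in PCL-E. By CPM the groups were apart on day 3 and overlapped on day 7, where PCL-O stood alone. After the TMM scaling that the fold changes use, they did not overlap on day 7 but lay close. PCL-E stood at 0.654, PCL-S at 0.630 and PCL-SE at 0.610 times PCL-O. Neither S7 difference was called (0.21 ± 0.15, adjusted p = 0.403, and -0.39 ± 0.15, adjusted p = 0.0633). With S7, Rara fell from day 3 to day 7 (-0.63 ± 0.15, adjusted p = 0.0119). That call was lost without PCL-S day 3, PCL-SE day 3 or PCL-S day 7, under library totals (-0.32, adjusted p = 0.0754), with E7 allowed to differ by day (adjusted p = 0.0789) and in the arm and day fit (-0.34, adjusted p = 0.279). Without PCL-E day 7, the S7 difference on day 7 was called (-0.65, adjusted p = 0.00131), and so was its change between the days (-0.86, adjusted p = 0.00208).

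Rarb (ENSRNOG00000024061), whose mouse window holds the spaced repeat shown above, was low in every library. It had 9 counts in PCL-O, 14 in PCL-E, 28 with PCL-S and 18 with PCL-SE on day 3, or 0.261, 0.403, 0.683 and 0.528 CPM. On day 7 it had 25, 36, 27 and 34 counts in the same order, or 0.759, 0.862, 0.819 and 0.907 CPM. By CPM, all 4 libraries of day 7 were above all 4 of day 3, and on day 3 the arms with S7 were above those without. After TMM scaling the days were not apart: PCL-S on day 7 stood at 0.968 times PCL-S on day 3 (95% counting interval 0.549 to 1.70). No comparison of Rarb was called: the S7 difference was 0.89 ± 0.46 on day 3 (adjusted p = 0.251) and -0.13 ± 0.42 on day 7 (adjusted p = 0.812). The day difference was 1.22 ± 0.45 without S7 (adjusted p = 0.267) and 0.19 ± 0.42 with S7 (adjusted p = 0.730).

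Cyp26b1 (ENSRNOG00000015076), which oxidises retinoic acid for removal, was the only 1 of the 7 tested genes whose S7 difference was called as changed between the days. On day 3 it stood at 53.8 CPM in PCL-O and 31.5 in PCL-E, against 24.0 with PCL-S and 24.1 with PCL-SE. On day 7 it had dropped to 3.88 in PCL-O and 7.86 in PCL-E, against 19.0 with PCL-S and 39.2 with PCL-SE. The groups did not overlap on either day, and their order turned round between the days. Leaving out 1 library gave fitted S7 differences on day 3 from -1.44 to -0.011, the last without PCL-O day 3.

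The S7 difference of Cyp26b1 was -0.84 ± 0.40 on day 3 (adjusted p = 0.221), which was not called, and 2.08 ± 0.44 on day 7 (4.22-fold, adjusted p = 0.00766). The change between the days was 2.92 ± 0.59 (adjusted p = 0.0135). Of the 7 tested genes 1 was called in this comparison, against 28.7% of all features (13.2% higher and 15.5% lower). Without S7, Cyp26b1 fell by 2.99 ± 0.45 on the log2 scale from day 3 to day 7 (7.95-fold lower, adjusted p = 0.0329). In that comparison 1 of the 7 genes was called, against 1.61% of all features (0.671% higher and 0.935% lower). With S7 the day difference was -0.070 ± 0.41 (adjusted p = 0.900). In that comparison 3 of the 7 genes were called (Rarg higher, Crabp2 and Rara lower), against 50.7% of all features (24.4% higher and 26.4% lower).

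The day 7 call of Cyp26b1 was lost without PCL-SE day 7 (1.45). It was also lost in the arm and day fit, which holds 1 difference of PCL-S from PCL-O for both days (0.043, adjusted p = 0.984). In that fit the day difference over all arms was -1.48 (adjusted p = 0.262). The call of its change between the days was lost without PCL-S day 3 (adjusted p = 0.0520), PCL-SE day 3 (adjusted p = 0.0669) or PCL-SE day 7 (adjusted p = 0.0563), and the value ran from 2.09 to 3.52. The call of the fall without S7 was lost without any 1 of 6 libraries, in fits where fewer of all features were called too. It held without PCL-O day 7 or PCL-E day 7. With 1 library left out, the value ran from -3.66 to -2.23. When E7 was allowed to differ by day, the fall without S7 was -3.68 (adjusted p = 0.0578) and the day difference with S7 was called (-0.83, adjusted p = 0.0452). That fit called 0 of all features for the days without S7 and 5618 for the days with S7.

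**Figure D4:**
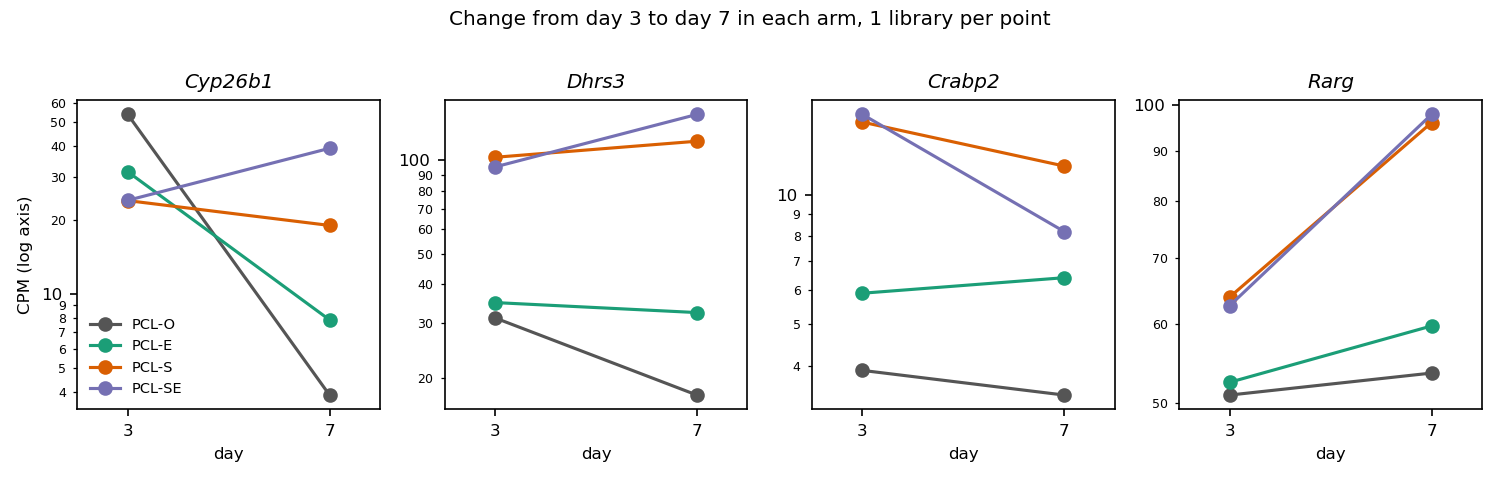
CPM on day 3 and day 7 in each arm for 4 genes on log axes, 1 library per point, with a line joining the 2 days of an arm. Cyp26b1 drops from 53.8 to 3.88 CPM in PCL-O and from 31.5 to 7.86 in PCL-E, goes from 24.0 to 19.0 in PCL-S and from 24.1 to 39.2 in PCL-SE.

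Single arms were set side by side as log2 ratios after adding 2 to the TMM-scaled CPM, with 1 library per side and no test. From day 3 to day 7, Cyp26b1 gave -3.30 in PCL-O, -1.85 in PCL-E, -0.59 with PCL-S and 0.37 with PCL-SE. A fall of 1 or more was shown by 0.985% of features in PCL-O and 1.02% in PCL-E. Set against PCL-O, a library these ratios share, Cyp26b1 on day 7 gave 0.68 for PCL-E, 1.61 for PCL-S and 2.56 for PCL-SE. A rise of 1 or more was shown by 5.28% of features for PCL-S and 4.79% for PCL-SE. On day 3 the ratios were -0.76, -1.10 and -1.10, and a fall of 1 or more was shown by 2.5% of features for PCL-S and 2.46% for PCL-SE. PCL-SE and PCL-S were equal within counting error on day 3 (ratio 0.994, 95% counting interval 0.905 to 1.09) and differed on day 7 (ratio 2.05, 1.86 to 2.25).

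E7 over both days gave 0 called genes among the 7, as among all features (0%). No member reached an unadjusted p under 0.05 in edgeR, while 589 features did, and DESeq2 called 1 feature and 0 members. The largest values were 0.26 ± 0.13 for Dhrs3, 0.24 ± 0.30 for Cyp26b1 and -0.21 ± 0.10 for Rara. In single pairs on day 7, PCL-E stood at 0.73 over PCL-O for Dhrs3, 0.57 for Crabp2 and -0.58 for Rara, and on day 3 at 0.13, 0.41 and -0.025. Cyp26b1 gave 0.68 on day 7 and -0.76 on day 3, opposite signs that a term common to both days cannot show. None of these reached 2-fold, which on day 7 was passed upwards by 0.715% and downwards by 0.878% of features.

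The features with the most similar profiles over the 8 libraries were found by the root mean square difference of mean-centred log2 values, among 10222 features with a symbol and at least 5 CPM. Dhrs3, which ranged over 2.60, was nearest to Hhipl1 (0.247), Glul (0.252) and Syt1 (0.262). Crabp2, with a range of 1.72, was nearest to Abca7 (0.144), Vav2 (0.170) and Oplah (0.181). Cyp26b1, with a range of 3.30, had more distant neighbours: Mitf (0.607), LOC103691556 (0.620) and Csrnp1 (0.669). Mitf stood at 7.11 to 9.64 CPM in the 4 libraries of day 3, at 2.37 and 2.71 in PCL-O and PCL-E on day 7, and at 10.3 and 10.5 in PCL-S and PCL-SE, so it shared the low day 7 values but not the order on day 3.

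Other genes of the pathway were taken from 5 lists. The shares of all features called with S7 were 7.1% higher and 6.87% lower on day 3, and 24.9% and 26.2% on day 7. Of 9 genes of retinol transport and storage, 8 matched, 5 had counts and 3 could be tested, and Lrat, Ttr and Rbp7 had no count. Dgat1, which esterifies fats and retinol, was called higher on day 7 (0.27 ± 0.082, adjusted p = 0.0315). No other gene of this list was called on either day, and the call of Dgat1 was lost without any 1 library but PCL-E day 7.

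Of the oxidoreductases of retinol and retinal, 17 were listed, 13 matched and 9 tested. The list also held aldehyde dehydrogenases and Retsat. With S7, 1 was higher on day 3 and 3 on day 7, and 0 were lower on either day. Dhrs9, a retinol dehydrogenase, stood at 87.4 CPM with PCL-S and 89.9 with PCL-SE on day 3, whereas PCL-O gave 40.4 and PCL-E gave 42.8. On day 7 it stood at 174 with PCL-S and 186 with PCL-SE, whereas PCL-O gave 48.6 and PCL-E gave 99.97. The difference was 1.11 ± 0.22 on each day (adjusted p = 0.0212 and 0.00624). Rdh10, which makes the retinal used for retinoic acid, was higher on day 7 (0.64 ± 0.14, adjusted p = 0.00970), as was Dhrs4 (0.41 ± 0.14, adjusted p = 0.0439). The day 3 call of Dhrs9 was lost without any day 3 library, and its day 7 call without PCL-S day 7 (adjusted p = 0.0521). Rdh10 was lost without PCL-S day 7 or PCL-SE day 7, and Dhrs4 without any 1 library but PCL-E day 7.

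Among further binding and clearance genes, Cyp26a1 and Cyp26c1 had no count in any library, so Cyp26b1 was the only Cyp26 gene with counts. Fabp5, which carries fatty acids and retinoic acid, was higher with S7 on day 3 (1.07 ± 0.22, adjusted p = 0.0214). It stood there at 74.7 CPM with PCL-S and 74.3 with PCL-SE, whereas PCL-O gave 30.5 and PCL-E gave 42.2. With S7 it fell from day 3 to day 7 (-1.14 ± 0.22, adjusted p = 0.00487), and its S7 difference changed between the days (-1.29 ± 0.30, adjusted p = 0.0216). The day 3 call was lost without any day 3 library, the change of the difference without any of these or PCL-SE day 7, and the fall held without any 1 library.

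The receptor partners and coregulators held 15 genes, of which 14 matched and were tested. With S7, 1 was higher on day 3, and 5 were higher and 1 lower on day 7, or 7 and 0 on day 7 under library totals. Rxra and Rxrb, the retinoid X receptors that pair with the retinoic acid receptors, rose on day 7 (0.90 ± 0.091, adjusted p = 4.89e-04, and 0.49 ± 0.079, adjusted p = 0.00261). Rxra stood at 36.6 CPM with PCL-S and 37.1 with PCL-SE, whereas PCL-O gave 15.5 and PCL-E gave 18.4. Nr2f2, an orphan nuclear receptor, rose on both days (0.64 ± 0.10, adjusted p = 0.0101, and 1.29 ± 0.10, adjusted p = 2.42e-04). Ppard, a fatty acid receptor, rose on day 7 (0.75 ± 0.081, adjusted p = 6.05e-04), and so did the coactivator gene Ncoa3 (0.41 ± 0.11, adjusted p = 0.0231). Nrip1, a corepressor gene, fell (-0.53 ± 0.13, adjusted p = 0.0153).

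On day 7 the calls of Rxra, Rxrb, Ppard and Nr2f2 held without any 1 library. Ncoa3 was lost without PCL-E day 7 or PCL-SE day 7, Nrip1 without PCL-O day 7, PCL-S day 7 or PCL-SE day 7, and Nr2f2 on day 3 without PCL-O, PCL-S or PCL-E of that day. Under library totals, a setting added after the data were seen, the fall of Nrip1 was not called (-0.30, adjusted p = 0.0749). That scaling moved the median of all features by 0.22 for S7 on day 7, 0.30 for the days with S7 and 0.24 for the change between them. From day 3 to day 7 with S7, 4 partners rose and 4 fell, and under library totals 8 rose and 1 fell, so that split depends on the scaling.

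Of 23 genes listed as responsive to retinoic acid in other systems, 22 matched and 12 were tested. With S7, 1 was higher and 0 were lower on day 3, and 2 were higher and 4 lower on day 7, with median log2 fold changes of 0.22 and -0.27. Tgm2, tissue transglutaminase, was higher on day 3 (2.08 ± 0.37, adjusted p = 0.0138), at 27.3 CPM with PCL-S and 29.6 with PCL-SE whereas PCL-O gave 4.38 and PCL-E gave 9.54. It was then between 3.11 and 4.98 CPM in all 4 libraries of day 7. Rarres2, which encodes chemerin, fell with S7 on day 7 (-3.05 ± 0.39, adjusted p = 0.00105), as did Rarres1 (-1.33 ± 0.38, adjusted p = 0.0246), while Meis1 (0.58 ± 0.093, adjusted p = 0.00256) and Gata6 (0.59 ± 0.16, adjusted p = 0.0202), both transcription factor genes, rose. Nrip1, given above, stands in this list too, and the other lower gene, Cdx1 (adjusted p = 0.0362), had no count in the arms with S7 on day 7 and lost its call without any 1 of 6 libraries.

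The calls of Rarres2 and Meis1 on day 7 held without any 1 library. Tgm2 on day 3 was lost without PCL-O, PCL-S or PCL-SE of that day, Rarres1 without PCL-E day 7 or PCL-SE day 7, and Gata6 without PCL-O day 7 or PCL-S day 7. In the arms with S7, 1 responsive gene rose and 7 fell from day 3 to day 7, against 24.4% of all features higher and 26.4% lower. Without S7, edgeR called 0 of the 39 tested genes of the 5 lists (6 had an unadjusted p under 0.05), whereas DESeq2 called 4: Dhrs9 and Meis1 higher, Nr2f2 and Rarres1 lower. Summed stromal markers were also lower with S7 on day 7 (3403 and 3312 CPM against 5079 and 4888), but the list did not move together. Itgb1 was lower (1841 and 1718 CPM against 3500 and 3503), Cd44 was higher (505 and 503 against 225 and 290) and so was Pdgfra (77.6 and 82.2 against 51.5 and 33.6). Of the adipocyte list, Fabp4 stood at 3.55 and 2.16 CPM with S7 on day 7 against 0 and 0.455, while Adipoq, Plin1 and Lep were at or near 0 in those libraries. The endothelial sum was higher with S7 on day 3 (12.8 and 14.3 CPM against 5.42 and 6.37), nearly all of it Tek. Their part in these results was not tested.

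**Figure D5:**
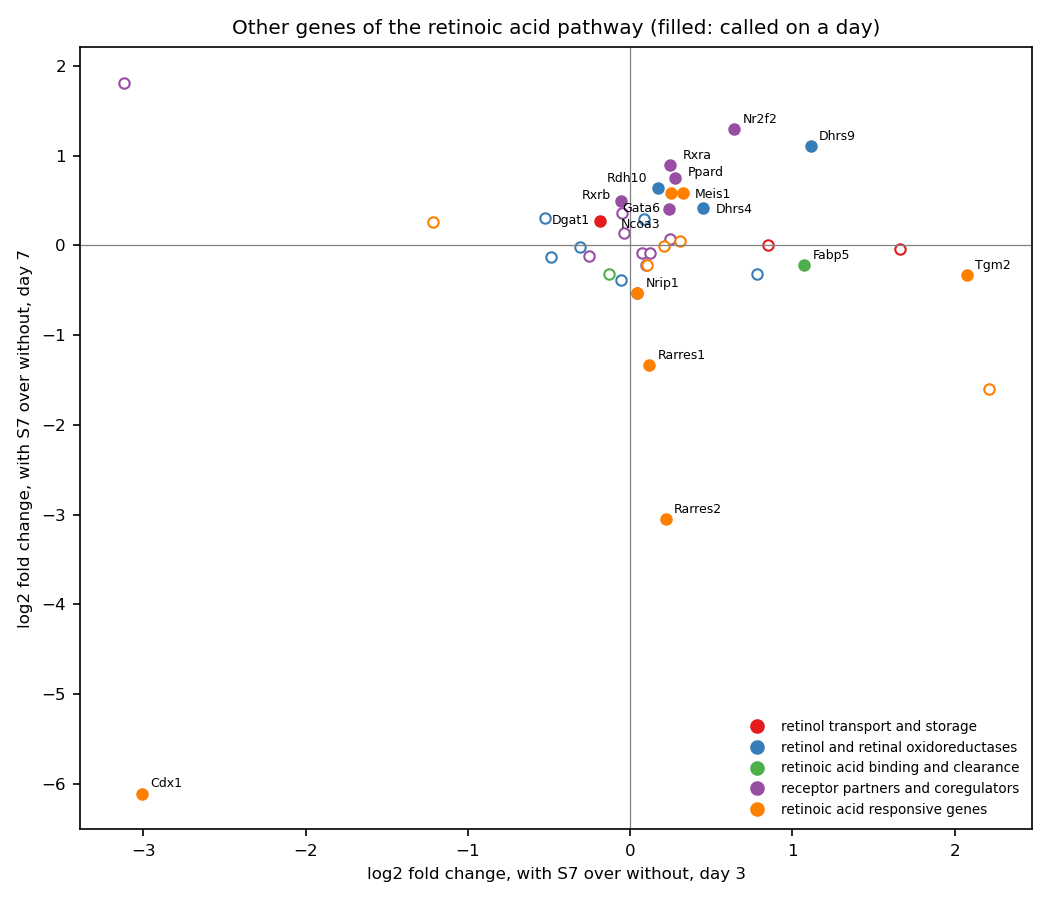
Log2 fold changes of the S7 difference on day 3 (horizontal) and day 7 (vertical) for the tested genes of 5 lists, filled where the gene was called on either day. Dhrs9 (1.11 and 1.11) and Nr2f2 (0.64 and 1.29) lie to the upper right, Rarres2 (-3.05 on day 7) far below; Nrip1 stands in 2 lists and is drawn in the colour of the last, and the positions of Cdx1 and of Rxrg, the unlabelled point at the upper left, rest on libraries with no count.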

How the data were processed

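RNA was measured in 8 libraries, 1 per arm and day. Per the labels' protocols, extraction used TRIzol and library preparation a SMARTER mRNA kit. The submitters' processing notes name mm10; the aligner and counter are not given here. Per the file headers, the authors deposited raw counts of reads per gene and FPKM values, which relate a count to gene length and library total. FPKM served only for levels between genes. The authors' fold changes were not used. Of 26873 features, 22050 carry rat Ensembl identifiers, 0 mouse ones and 4823 none, and 10 broken lines were left out.

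Printed CPM are counts over library totals, and fold changes use TMM. edgeR 4.0.16 (R 4.3.3) was used with filterByExpr on the design matrix, TMM, and the quasi-likelihood F-test with Benjamini-Hochberg adjustment over 15942 features (3 residual degrees of freedom, common biological coefficient of variation 0.137). A filter with each library as its own group (16657 features) was run first and replaced after its output was seen; the same members were called in every comparison. Errors of fold changes are standard errors; counting intervals are exact Poisson or binomial ones at 95% and, like limits of 3 counts, cover counting error only. The members, lists and tests were chosen with earlier results of these data known. All 9 members were named; list genes were named if called, or if highest, lowest or most changed in their list. A gene of the lists is not reported here and stands in none of the counts. Similar profiles were the 3 features with the smallest root mean square difference, for the 3 members with the largest range among those with at least 5 CPM. Alternatives were DESeq2 1.42.0, its size factors in edgeR, library totals, no filter, other treatments of E7, an additive fit of arm and day, 0.5 added to ratios, and leaving out each library. Promoter windows are RefSeq ones of GRCm38.p6, matched by symbol; 8 of 9 members had an entry. Tables and figures used Python 3.11.15, pandas 2.3.3, scipy 1.17.1 and matplotlib 3.10.9.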

Additional observations from a re-analysis of the deposited data

Results flagged for a closer look

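The S7 difference of 1 member and 9 list genes was called as changed between day 3 and day 7 by the interaction of S7 and day (edgeR, adjusted p under 0.05; 28.7% of all features were). For Cyp26b1, PCL-O and PCL-E were above PCL-S and PCL-SE on day 3 and below them on day 7. The S7 difference on day 3 was -0.84, was not called, and was -0.011 without PCL-O day 3. On day 7 it was 2.08. The change was 2.92 (adjusted p = 0.0135) on the log2 scale. It was positive without any 1 library, and 3 of the 8 such fits did not call it.

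The change was positive for Rxra (0.65), Rxrb (0.54), Nr2f2 (0.65), Ppard (0.48) and Dgat1 (0.45). It was negative for Fabp5 (-1.29), Tgm2 (-2.40) and Rarres2 (-3.27). For Rxrg the fitted change was 4.94, but the gene had no count in PCL-S on day 3 and at most 1.68 CPM in any library, so that value is no bound. Of these 9, Rarres2 was called without any 1 library, and the other 8 each lost the call without at least 1. No group held 4 or more libraries, so no single library was tested as standing apart.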

How the results depend on the processing

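No paired analysis was possible because the labels carry no replicate numbers to pair by; the 2 days of an arm are linked only by the arm, which the additive fit of arm and day takes up. Leaving out 1 library leaves an arm and day with none, and the fit then assumes that the lone library of a pooled group varies like the others. Many of these fits also called fewer of all features, so counts of members called in them are not compared. Dhrs3 then ran from 1.34 to 1.85 for S7 on day 3 and from 1.85 to 2.54 for S7 on day 7. Cyp26b1 ran from 1.45 to 2.60 for S7 on day 7 and from -3.66 to -2.23 for the days without S7. For the change of the S7 difference Cyp26b1 ran from 2.09 to 3.52. The additive fit of arm and day, in which a change that differs between days counts as spread, called 1 member for PCL-S on PCL-O and 0 for the days. Over all features it called 201 and 6. Library totals called 1 member for the days with S7, among 8940 features called, and 2 for the change of the S7 difference, among 5471. With E7 allowed to differ by day, 0 members and 0 of all features were called without S7, against 256 features in the main fit. With S7 that fit called 1 member and 5618 features, against 8090 in the main fit. DESeq2, its size factors, no filter, the other filter and a model without E7 moved no count of members by over 1.5 times.

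Values that changed direction were uncalled in both settings. Under library totals these were Rarb for S7 on day 7 (0.090), Crabp2 (0.00078) and Rara (0.036) for the days without S7, and Cyp26b1 for the days with S7 (0.23). With E7 by day they were Crabp2 (0.030) and Rara (0.089) without S7, and Dhrs3 (-0.19) with S7. In the additive fit, PCL-S against PCL-O stood in for S7 and PCL-E against PCL-O for E7. A common day term stood in for both day comparisons. The values there were Rara (-0.21) and Cyp26b1 (0.043) for S7 on day 3 and Rarb (0.58) for S7 on day 7. They were Dhrs3 (-0.23) for the days with S7 and Cyp26b1 (-0.35) for E7. Without 1 library the ranges that cross 0 were, without S7, -0.52 to 0.27 for Crabp2 and -0.31 to 0.24 for Rara. With S7 they were -0.20 to 0.32 for Dhrs3, -0.10 to 0.53 for Rarb and -0.66 to 0.42 for Cyp26b1. For E7 they were -0.35 to 0.57 for Aldh1a1, -0.043 to 0.25 for Rarb, -0.00045 to 0.035 for Rarg and -0.043 to 0.63 for Cyp26b1. The causes were not tested. Aldh1a1, Aldh1a2 and Rarb are limited by depth.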
